A study of Mus musculus with 21 samples.

Results

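The Ces1f Ces1g S1pr3 fibroblasts were a set of barcodes in 1 single-cell library of mouse colon stroma, and they numbered 610 of the 11376 barcodes kept, or 5.36% (95% Clopper-Pearson interval 4.96 to 5.79%, counting error only). A kept barcode had at least 500 detected genes and at most 10% of its UMIs (unique molecular identifiers, 1 per captured transcript) from mitochondrial genes. A member had a UMI of at least 2 of the 4 genes Ces1f, Ces1g, S1pr3 and Ch25h, called the rule markers here. It also had no UMI of Ebf1 and a UMI of fewer than 2 of Mmp10, Il11, Lcn2 and Cd36. The members were thus chosen by their measured UMIs of these 9 genes. All comparisons set the members against the other 10766 kept barcodes or named parts of them.

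The study followed stromal cells of the colon in C57BL/6 mice, with 21 samples in 9 groups. The single-cell library came from wild type females of 12 weeks (how many is not given in the sources used here), which were given 2% DSS (dextran sulfate sodium, which damages the epithelium of the colon), collected at D3 and sorted as gp38+CD90+ stromal cells. ATAC-seq peak lists of MRISC (intestinal stromal cells regulated by Map3k2), CD34 SP, CD138 (CD34-negative, CD138-positive) and Myofibroblast, each sorted from males of 12 weeks with 2 libraries and with no treatment in the labels, were used for chromatin at the genes below. The 12 bulk RNA libraries were not analysed here. The single-cell data are 1 library with no untreated counterpart here, so there is no replicate, no p-value was made from barcodes, and every interval below covers counting error only.

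Fibroblasts of the intestinal wall hold the epithelial stem cell niche. R-spondins are secreted proteins that act through LGR receptors and raise the response of stem cells to Wnt, while neuregulin and epiregulin are ligands of the EGF receptor family. The genes of the rule come from lipid metabolism and lipid signalling: Ces1f and Ces1g encode carboxylesterases, S1pr3 a receptor for sphingosine-1-phosphate, and Ch25h the enzyme that makes 25-hydroxycholesterol. Ebf1 encodes a transcription factor of adventitial and perivascular stroma. Il11, Mmp10 and Lcn2 are genes of inflamed stroma, and Cd36 encodes a fatty acid receptor.

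The rule itself fixed the levels of these 9 genes, which are given as a description only. Levels are pooled CPM, the UMIs of a gene summed over a group and scaled to the total UMIs of that group. Ces1g had 280.5 CPM in members, against 29.3 CPM in the other kept barcodes, and 82.8% of members had a UMI of it. Ch25h had 182.6 CPM in members and 19.0 CPM in the others, and was seen in 66.1% of members. S1pr3 had 92.7 CPM in members and 6.89 CPM in the others, with a UMI in 52.0% of members. Ces1f was seen in 19.5% of members, at 88.9 CPM against 3.93 CPM in the others, so most members were chosen through the other 3 genes. Ebf1 was at 0 in members by the rule and at 70.9 CPM in the others. Of the inflamed genes, Il11 stood at 52.5 CPM in members and 23.4 CPM in the others, Cd36 at 25.9 and 13.5 CPM, Mmp10 at 18.7 and 15.1 CPM, and Lcn2 at 14.7 and 23.5 CPM.

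The threshold on the rule markers ran through low counts. Just inside it, 496 members had exactly 2 rule markers, while 104 had 3 and 10 had all 4. Just outside it, 1813 barcodes met the other conditions with exactly 1 rule marker, and 7332 with none. An Ebf1 UMI kept out 26 barcodes that had at least 2 rule markers, and 2 or more inflamed genes kept out a further 61. Ces1f and Ces1g are near copies that lie side by side, so reads may be split between them in the authors' counting; joined into 1 marker, they left 4.95% of the kept barcodes as members.

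The 4 rule markers lie on 3 chromosomes. In GRCm38 (mm10) coordinates, Ces1f spans chr8:93256236-93279747 and Ces1g chr8:93302369-93337308, both on the minus strand, as the 6th and 7th of 8 Ces1 genes in a row there. S1pr3 spans chr13:51408639-51422797 on the plus strand, and Ch25h, a gene of 1387 bp, spans chr19:34473778-34475164 on the minus strand. Rspo1 spans chr4:124986430-125009099 on the plus strand. The RefSeq promoter set used here held no entry for Ces1f, Nrg1 or Ereg. The promoters of 3 rule markers and of Rspo1 are shown, and ATAC peaks of the sorted populations covered part of each. Each runs 5′ to 3′ along the gene from 250 bases before to 50 after the RefSeq start (GRCm38.p6), and capitals mark bases covered by a peak in every population that had a peak there.
Ces1g (chr8:93337160-93337459, minus strand): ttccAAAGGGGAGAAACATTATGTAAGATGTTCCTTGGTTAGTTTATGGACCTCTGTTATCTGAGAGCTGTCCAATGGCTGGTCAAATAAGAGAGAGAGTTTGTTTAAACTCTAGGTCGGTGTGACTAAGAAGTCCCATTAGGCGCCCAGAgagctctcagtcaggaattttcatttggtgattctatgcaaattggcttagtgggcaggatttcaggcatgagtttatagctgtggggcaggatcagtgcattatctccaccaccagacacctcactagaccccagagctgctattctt
S1pr3 (chr13:51408368-51408667, plus strand): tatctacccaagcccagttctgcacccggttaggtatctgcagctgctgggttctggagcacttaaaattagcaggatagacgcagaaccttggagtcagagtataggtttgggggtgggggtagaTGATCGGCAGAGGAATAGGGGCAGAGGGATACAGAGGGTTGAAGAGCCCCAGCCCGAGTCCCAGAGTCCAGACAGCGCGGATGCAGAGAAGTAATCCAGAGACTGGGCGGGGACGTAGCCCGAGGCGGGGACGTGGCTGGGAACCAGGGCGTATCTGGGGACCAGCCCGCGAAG
Ch25h (chr19:34475099-34475398, minus strand): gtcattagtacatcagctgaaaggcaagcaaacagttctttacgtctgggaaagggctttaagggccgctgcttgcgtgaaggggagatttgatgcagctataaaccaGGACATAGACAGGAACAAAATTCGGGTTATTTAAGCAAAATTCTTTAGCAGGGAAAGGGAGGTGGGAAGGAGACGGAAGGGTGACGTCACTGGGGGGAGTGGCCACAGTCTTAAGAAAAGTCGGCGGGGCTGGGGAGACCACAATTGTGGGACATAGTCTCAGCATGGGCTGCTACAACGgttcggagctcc
Rspo1 (chr4:124986180-124986479, plus strand): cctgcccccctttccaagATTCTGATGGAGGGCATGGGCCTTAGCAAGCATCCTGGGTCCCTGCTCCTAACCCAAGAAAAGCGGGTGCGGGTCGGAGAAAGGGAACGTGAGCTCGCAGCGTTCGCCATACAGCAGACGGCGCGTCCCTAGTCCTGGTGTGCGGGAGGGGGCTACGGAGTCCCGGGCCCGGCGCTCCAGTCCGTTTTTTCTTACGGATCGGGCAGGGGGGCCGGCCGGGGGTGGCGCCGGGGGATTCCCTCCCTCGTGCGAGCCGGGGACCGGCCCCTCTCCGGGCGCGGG

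At the S1pr3 and Ch25h promoters every one of the 4 populations had a peak, and 174 and 180 of the 300 bases were covered in all of them. The Ces1g promoter had a peak in MRISC, CD34 SP and CD138, with 147 bases in common, and none in the Myofibroblast list. The Rspo1 promoter had a peak in MRISC and CD34 SP, with 282 bases in common, and none in the CD138 or Myofibroblast lists. Searched on both strands, TATAAA occurred once in the Ces1g and once in the Ch25h window, where 13.6% of all 32544 RefSeq promoters hold it. CCACCC, the core of KLF sites, occurred once in the S1pr3 and once in the Rspo1 window, against 31.6% of all promoters. GGGCGG, the SP core, occurred once in the S1pr3 window, against 35.9% of all promoters, and TGANTCA, the AP-1 site, in none of the 4 windows, against 7.79% of all promoters.

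Within the gene and 10 kb on each side, Ces1f had 3 peaks on the MRISC list, 0 on that of CD34 SP, 2 on that of CD138 and 5 on that of Myofibroblast, none of them at the start of the gene. All were also on their population's list of specific peaks, which held 46.6% of all peaks for MRISC, 58.4% for CD138 and 62.9% for Myofibroblast. Of the Ces1f peaks, 0 in MRISC, 1 in CD138 and 1 in Myofibroblast scored above the median of their list. Rspo1 had 7, 5, 4 and 3 peaks in the same order, and Ereg had 13, 27, 12 and 4. Nrg1, which is over a megabase long, had 32, 35, 80 and 67. The members are not one of the sorted populations. Each population had 1 list for its 2 libraries, so these counts describe the loci and have no error estimate.

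As a pool, the members carried the markers of fibroblasts. Pdgfra, the PDGF receptor of fibroblasts, had 175.2 CPM in members and 152.6 CPM in the other kept barcodes. Col1a1 had 1750 and 1885 CPM, and Col3a1 3905 and 4576 CPM. Decorin (Dcn) was abundant at 5480 CPM in members, against 8630 CPM in the others, and lumican (Lum) was lower at 398.4 against 1129 CPM. Adamdec1, a metalloprotease gene of lamina propria fibroblasts, had 10376 CPM in members and 4048 CPM in the others, and Ces1d, a carboxylesterase gene that the rule did not use, had 615.5 and 221.4 CPM. The 12 immune markers summed to 132.9 CPM in members and 173.6 CPM in the others, and 2 of them had no UMI in members, Ptprc among those at 0. The 7 blood endothelium markers summed to 20.5 CPM in members and 37.1 CPM in the others, with 3 at 0 in members, among them Cdh5 and Cldn5.

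Epithelial genes stood apart in a few members. The 10 epithelial markers summed to 207.5 CPM in members and 106.8 CPM in the others, and 4 of them had at least 20 CPM. Of the members, 3 carried at least 3 of the 6 markers Epcam, Cdh1, Krt20, Lgals4, Phgr1 and Cldn7, with a median depth of 19663 UMIs. Without these 3 barcodes the members' sum over the 10 markers was 21.4 CPM. Doublets were not removed. Members were deeper, with a median of 7308 UMIs and 2634 genes, against 5988.5 UMIs and 2269 genes in the others, and 13.8% of members, against 4.5% of the others, lay above the 95th percentile of depth. The mitochondrial share was alike, with medians of 1.33 and 1.34%.

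All 3 growth factor genes named for comparison were higher in the members as a pool. Rspo1, the R-spondin, had 68.0 CPM in members (60.9 to 75.6) and 25.2 CPM in the other kept barcodes (24.0 to 26.4), a ratio of 2.70 (95% interval 2.40 to 3.04). Nrg1, neuregulin, had 557.4 CPM in members and 119.7 CPM in the others, a ratio of 4.66 (4.46 to 4.86). Ereg, epiregulin, had 800.6 CPM in members and 366.0 CPM in the others, a ratio of 2.19 (2.11 to 2.26). None of the 3 ratios has an interval that reaches 1, but barcodes of 1 library are no replicates of a condition. In empty droplets, which hold free RNA, the levels were 24.7 CPM for Rspo1, 152.6 CPM for Nrg1 and 375.3 CPM for Ereg, near those of the other kept barcodes and below those of the members.

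**Figure D1:**
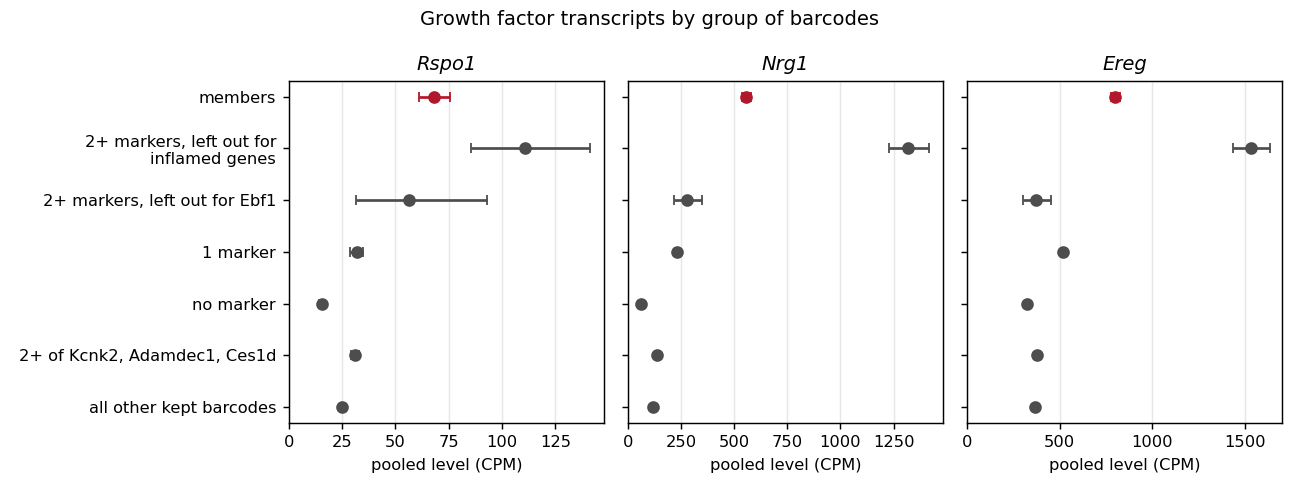
Pooled levels of Rspo1, Nrg1 and Ereg in CPM (horizontal axes, starting at 0) for the members in red and 6 other groups of barcodes in grey, with 95% Poisson intervals as bars. The members lie right of the other kept barcodes for all 3 genes, at 68.0 against 25.2 CPM for Rspo1, and the barcodes left out for inflamed genes lie further right.

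The UMIs of these genes did not come from a few members alone, but they were uneven between members. Nrg1 had no UMI in 218 members, Ereg in 115 and Rspo1 in 417. In members, Nrg1 had 0 UMIs in the lowest barcode, a median of 1 and 45 in the highest, while in the others the median was 0 and the highest 50. Ereg had a median of 4 and a highest value of 58 UMIs in members, against 1 and 83 in the others. Rspo1 had a median of 0 and a highest value of 5 UMIs in members, against 0 and 19 in the others. The groups overlapped for all 3 genes, and the highest single barcodes were not members. The 3 highest members held 4.33% of the members' Nrg1 UMIs, 4.25% of their Ereg and 4.44% of their Rspo1.

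Rspo1 had a UMI in 31.6% of members and 9.08% of the others, Nrg1 in 64.3 and 19.4%, and Ereg in 81.1 and 55.9%. Since members were deeper, each barcode was also thinned to 3000 UMIs, which left out 6 members and 730 others. The thinned shares were 16.6% of members (13.7 to 19.8%) and 5.29% of the others (4.86 to 5.75%) for Rspo1, and 48.3 and 13.6% for Nrg1. Ereg was seen in 66.1% of thinned members and 42.4% of the others. For comparison, 33 immune barcodes were also thinned, of a median depth of 7990 UMIs before thinning. They gave 0% for Rspo1 (interval up to 10.6%), 9.09% for Nrg1 (1.92 to 24.3%) and 54.5% for Ereg (36.4 to 71.9%). The Ereg share in the other kept barcodes was no higher than in immune barcodes, and that of the members lay inside the immune interval. However, the immune barcodes also held fibroblast transcripts after thinning, with Pdgfra in 36.4% and Adamdec1 in 78.8%, against 39.4 and 99.7% of members. Doublets were not removed, so the immune share of Ereg cannot serve as a background, and the part of free RNA was not tested. In 26 thinned epithelial barcodes Ereg was seen in 15.4% (4.36 to 34.9%), Pdgfra in 0% and Adamdec1 in 53.8%.

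**Figure D2:**
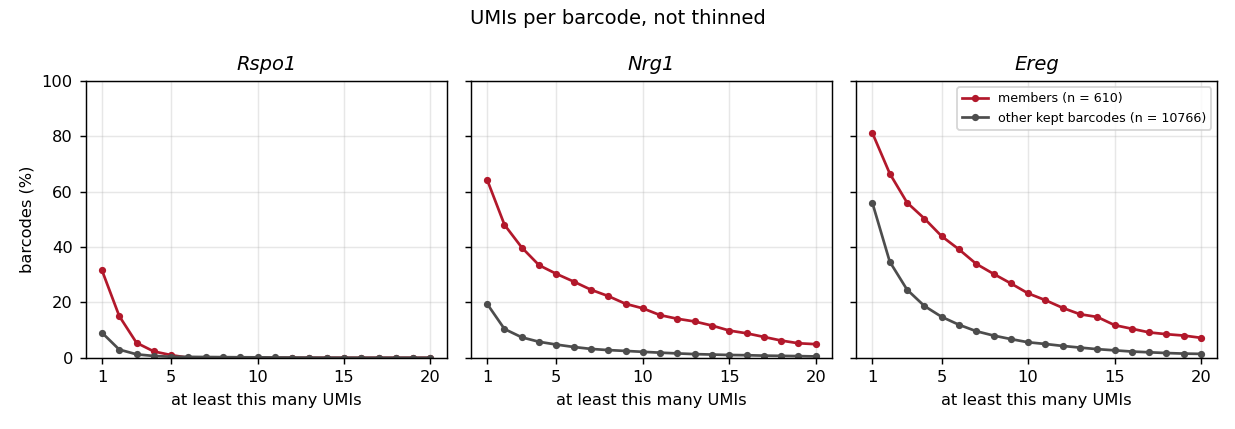
Percent of barcodes (vertical axis) with at least the number of UMIs on the horizontal axis, for members in red and other kept barcodes in grey, not thinned. The curve of the members is above that of the others up to about 20 UMIs for Nrg1 and Ereg; for Rspo1 no member had more than 5 UMIs.

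The 3 transcripts were also found together in single barcodes. All 3 were detected in 140 members, or 23.0%, against 334 of the others, or 3.1%. None of the 3 was detected in 56 members (9.18%), against 3935 of the others (36.6%). These shares are not thinned, so the greater depth of the members enters them.

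Among the members, levels differed with the number of rule markers. Barcodes with 0, 1, 2, 3 and 4 rule markers that met the other conditions had 63.8, 230.4, 513.5, 727.4 and 834.5 CPM of Nrg1. For Ereg the levels were 324.9, 517.5, 784.3, 854.4 and 994.5 CPM, and for Rspo1 15.5, 31.8, 63.3, 83.2 and 125.7 CPM. So barcodes just outside the threshold, with 1 rule marker, lay between those with none and those with 2 for each gene. The 10 members with 4 rule markers had wide intervals, which overlap those of members with 3 for all 3 genes. The stem cell and vessel antigen Cd34 ran the other way, with 479.4, 292.4, 172.9, 78.7 and 22.9 CPM, and the tetraspanin Cd81 with 93.1, 61.0, 27.5, 16.9 and 0 CPM. The 0 comes from 10 members and has an interval up to 42.2 CPM. Median depth was higher with more rule markers, at 5774 UMIs with 0, 6674 with 1, 7185 with 2, 7572 with 3 and 7837.5 with 4, and its part in the gradient was not tested.

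**Figure D3:**
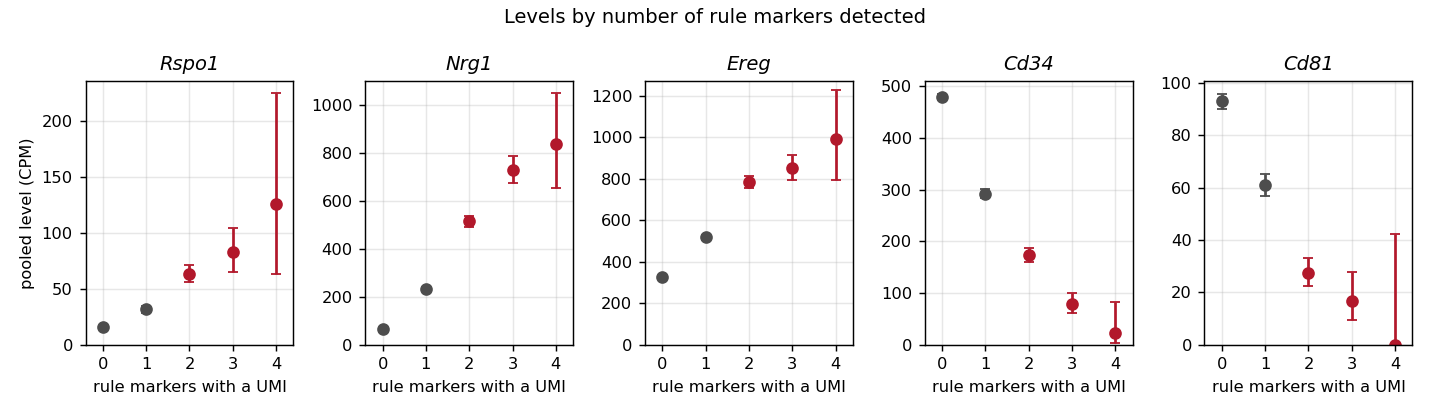
Pooled level in CPM (vertical axes, starting at 0) against the number of the 4 rule markers with a UMI, for barcodes that met the other conditions; members, with 2 or more, are in red, and bars are 95% Poisson intervals. Rspo1, Nrg1 and Ereg are higher at each step, and Cd34 and Cd81 lower.

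The pairs of rule markers did not give equal levels. Members with Ces1g and S1pr3 numbered 223 and had 741.1 CPM of Nrg1 (701.8 to 781.9) and 91.7 CPM of Rspo1 (78.3 to 106.8). The 157 members with S1pr3 and Ch25h had 391.3 CPM of Nrg1 (357.7 to 427.2) and 50.2 CPM of Rspo1 (38.7 to 64.1), and neither interval overlaps that of the first pair. The most frequent pair, Ces1g and Ch25h in 310 members, had 527.3 CPM of Nrg1 and 858.1 CPM of Ereg. Ces1f and Ces1g met in 89 members, which had 814.5 CPM of Nrg1 and 895.8 CPM of Ereg and included all 3 members with epithelial genes. A member with 3 or 4 rule markers counts in several pairs.

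Barcodes with at least 2 rule markers that another condition left out of the members differed from them in growth factor levels. The 61 barcodes left out for inflamed genes had 1319.8 CPM of Nrg1, 1533.2 CPM of Ereg and 111.0 CPM of Rspo1, each above the level of the members. The 26 left out for Ebf1 had 278.2 CPM of Nrg1, 372.2 CPM of Ereg and 56.4 CPM of Rspo1. The ratio of members over these 26 was 2.00 for Nrg1 (1.59 to 2.56), 2.15 for Ereg (1.76 to 2.65) and 1.21 for Rspo1, with an interval of 0.72 to 2.18 that holds 1. Their Cd81 was 263.2 CPM, against 25.1 CPM in members. Barcodes with at least 2 of Kcnk2, Adamdec1 and Ces1d, genes of lamina propria fibroblasts, numbered 5242 outside the members. They were 46.1% of the kept barcodes and had 74.6 CPM of Ebf1, 411.4 CPM of Cd34 and 157.8 CPM of Cd81. The group is thus broad and not made of lamina propria fibroblasts alone. Its Nrg1 was 135.5 CPM, its Ereg 379.8 CPM and its Rspo1 31.0 CPM, all below the members.

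The ratios held at every depth, with Rspo1 smallest in the deepest barcodes. In 4 equal bins of kept barcodes by depth, from low to high, the ratio of members over others was 5.38, 5.14, 5.61 and 3.50 for Nrg1 and 2.13, 2.67, 2.00 and 1.92 for Ereg. For Rspo1 it was 5.28, 5.83, 4.77 and 1.45 (1.23 to 1.70 in the deepest bin, with 298 members). Of all Rspo1 UMIs, 20.7% lay in 71 barcodes of a deep cluster whose leading genes include the mesothelial genes Msln, Upk3b and Lrrn4. That cluster held 1 member and had 563.7 CPM of Rspo1 at a median of 10613 UMIs. A further 21.4% lay in the 1351 barcodes of a cluster led by Ptx3, Pcolce2 and Sfrp4, which also held 1 member. It had 539.3 CPM of Ebf1 and 53.6 CPM of Rspo1, against 68.0 CPM of Rspo1 in the members. High Rspo1 was thus not particular to the members.

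Clustering of the kept barcodes without the 9 genes of the rule gave 9 clusters, and members gathered in a pair of them. One cluster, led by Nrg1, Saa3, Plk2, Ddit4 and Cxcl14, held 384 members (63.0%), which were 25.3% of its barcodes. Another, led by Kcnk2, Tnc, Lbh, Adamdec1 and Ces1d, held 151 (24.8%), and the 2 together held 535 members. A further 28 members (4.59%) lay in a cluster led by the smooth muscle genes Myh11, Actg2 and Cnn1, which had 9744 CPM of Acta2. The pooled levels of the members include these 28. Within the first cluster Rspo1 had 91.1 CPM in members and 56.9 CPM in the other barcodes, a ratio of 1.60 (1.37 to 1.86), and Nrg1 822.8 and 684.7 CPM, a ratio of 1.20 (1.15 to 1.26). Ereg did not keep its direction there, with 1001.6 CPM in members and 1052.7 CPM in the others, a ratio of 0.95 (0.91 to 0.99). The 1132 other barcodes of this cluster thus lay above the 557.4 CPM of Nrg1 and 800.6 CPM of Ereg of all members pooled. They held 50.7% of all Nrg1 UMIs and 29.4% of all Ereg UMIs. High Nrg1 and Ereg were therefore not particular to the members either. Within the second cluster the ratios were 2.02 for Rspo1, 2.25 for Nrg1 (87.6 against 38.9 CPM) and 1.72 for Ereg. Its 151 members, at 87.6 CPM of Nrg1 and 322 CPM of Ereg, lay below all other kept barcodes, at 119.7 and 366.0 CPM. Their Rspo1, at 40.3 CPM, lay above the 25.2 CPM of those barcodes. The higher Nrg1 and Ereg of the pooled members thus did not extend to these 151. The clusters were made from these genes too, so the values within them are a description.

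Across all genes, 6223 had at least 20 CPM in either group, and 109 of them (1.75%) were at least 2-fold higher and 92 (1.48%) at least 2-fold lower in members. The median log2 ratio of the 6223 was 0.03. Among the highest was Il1rn, the antagonist of the interleukin-1 receptor, which had 41.2 CPM in members and 4.69 CPM in the others, a ratio of 8.78 (7.33 to 10.5), with a UMI in 73 members. P2rx1, an ATP-gated channel, had 24.5 and 2.65 CPM, and Chst8, a sulfotransferase, 21.5 and 2.50 CPM. Ddit4, an inhibitor of mTORC1, had 224.2 CPM in members and 37.6 CPM in the others (ratio 5.96), and the kinase gene Plk2 464.5 and 92.5 CPM (ratio 5.02). The chemokine Cxcl14 had 850.6 CPM in members and 187.3 CPM in the others (ratio 4.54) and was seen in 80.5% of members. Apoe, the apolipoprotein of cholesterol transport, reached 3860 CPM in members, against 1144 CPM in the others (ratio 3.37), and Apoc1 28.0 CPM in members at a ratio of 5.59.

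These ratios were smaller within the cluster with most members and against the barcodes left out of the members for inflamed genes. Within the cluster that held 384 members, and that Plk2, Ddit4 and Cxcl14 help to define, the ratio of members over the other barcodes was 2.14 for Il1rn, 2.06 for Ddit4, 1.60 for Plk2, 1.55 for Cxcl14 and 1.45 for Apoe. Apart from Car1, Reg3g and Reg3b, 3 epithelial genes, 6 of the 22 genes with the highest bounds were at least 2-fold higher in members there, 15 lay between 1 and 2-fold and 1 was below 1. In the cluster of 151 members 4 of the 22 were at least 2-fold higher. In the cluster led by Myh11, with 28 members, all 22 were. Against the 61 barcodes left out for inflamed genes the ratio was 0.52 for Il1rn, 0.80 for Ddit4, 0.90 for Plk2 (0.80 to 1.02), 0.92 for Cxcl14 (0.84 to 1.01) and 0.76 for Apoe, so none of these 5 genes was higher in members than in those barcodes.

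Further high genes included transcriptional regulators. Id1, a target of BMP signalling, had 210.7 CPM in members and 62.1 CPM in the others (ratio 3.39), Atoh8 67.8 and 21.3 CPM (ratio 3.19), and Hoxd9 48.7 and 14.4 CPM (ratio 3.38). Pappa, a protease that cleaves IGF binding proteins, had 78.8 CPM in members and 25.7 CPM in the others. The guidance factor Draxin, the transporter Slc16a12, the metallothionein Mt3, Rasd1, Tmem178, Bcr, Fam162b and the non-coding Snhg11 had ratios of 3.05 to 5.01. Within the cluster of 384 members Draxin had a ratio of 1.30 (0.99 to 1.69) and Tmem178 0.90 (0.71 to 1.13), and against the barcodes left out for inflamed genes 0.55 and 0.48. Id1, Atoh8 and Hoxd9 had ratios of 1.69, 1.98 and 1.97 in that cluster. Ces1d, with a ratio of 2.78 (2.67 to 2.89), was the sole carboxylesterase outside the rule with at least 20 CPM.

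Car1, Reg3g and Reg3b, genes of colon epithelium, were also among the highest, at 42.2, 137.9 and 371.4 CPM in members against 2.61, 19.3 and 63.8 CPM in the others. Between 97.1 and 98.4% of the members' UMIs of each lay in 3 barcodes. Without the 3 members that carried epithelial genes, their ratios were 0.31 for Car1, 0.12 for Reg3g and 0.17 for Reg3b, so these 3 genes were not high in the members at large. The ratios of Rspo1, Nrg1 and Ereg without these barcodes were 2.73, 4.71 and 2.21.

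Of 5 adventitial fibroblast markers outside the rule, Has1, Pi16 and Cd55 were at least 2-fold lower in members and none was higher. The rule keeps barcodes with Ebf1, a gene of adventitial fibroblasts, out of the members and leaves them among the others. Pi16, a marker of adventitial fibroblasts, had 9.65 CPM in members and 106.5 CPM in the others (ratio 0.09), Pcolce2, which enhances procollagen processing, 0.80 and 28.7 CPM, from 4 UMIs in members, and the pentraxin Ptx3 4.22 and 57.4 CPM. Cd81 had 25.1 CPM in members and 164.5 CPM in the others (ratio 0.15, 0.13 to 0.18), and Il33, an alarmin cytokine, 5.63 and 39.6 CPM. Igfbp6 had 56.9 and 271.9 CPM, Gas1 8.85 and 81.3 CPM, and Prss23 16.9 and 122.2 CPM. Against barcodes that met the same other conditions but had no rule marker, the ratio of members was 0.33 for Pi16, 0.21 for Pcolce2, 0.51 for Ptx3 and 0.42 for Cd55, but 1.22 for Has1 (1.03 to 1.44). Against those with exactly 1 rule marker it was 0.64 for Pi16 (0.45 to 0.88), 0.44 for Pcolce2 (0.11 to 1.27), 0.84 for Ptx3 (0.49 to 1.40) and 1.11 for Has1 (0.92 to 1.34). So Has1 was not lower in members in either of these comparisons, and Cd81, at 0.27 and 0.41, was lower in both. Against the 61 barcodes left out for inflamed genes, however, the Cd81 ratio was 0.92 (0.54 to 1.66). The other barcodes of the clusters with 384 and 151 members had 37.2 and 29.4 CPM of Cd81. Of all Cd81 UMIs, 56.7% lay in the cluster led by Ptx3, Pcolce2 and Sfrp4. Low Cd81 was thus not particular to the members. Sfrp4, Ptn, Cilp and Slpi had ratios of 0.06 to 0.19. Agr2, Spink4 and Jchain, genes of goblet and plasma cells, had 1.61, 4.02 and 24.5 CPM in members, against 26.3, 35.2 and 101.8 CPM in the others and 45.8, 43.9 and 167.2 CPM in empty droplets.

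**Figure D4:**
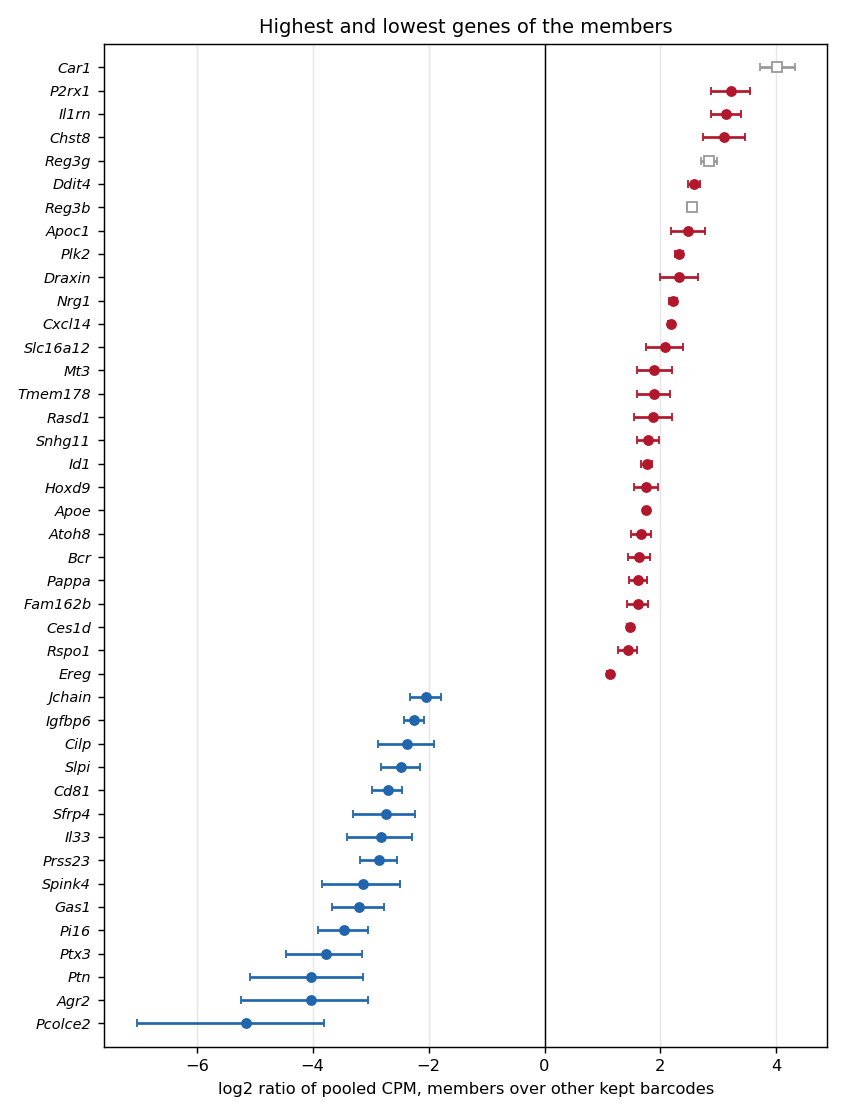
Log2 ratio of pooled CPM, members over other kept barcodes, for Rspo1, Nrg1, Ereg and genes among the 25 highest and 15 lowest by the bounds of their intervals, with 95% intervals for counting error. Open grey squares mark Car1, Reg3g and Reg3b, for which 3 barcodes held over 90% of the members' UMIs.

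Surface markers used in stromal sorting differed in direction. Cd34 had 153.4 CPM in members and 450.7 CPM in the others (ratio 0.34), and Sdc1, the gene of CD138, had 216.4 and 96.0 CPM (ratio 2.25). Within the cluster of 384 members Sdc1 had 274.8 CPM in members and 298.8 CPM in the other barcodes, a ratio of 0.92 (0.85 to 1.00), and Cd34 a ratio of 0.67. Within the cluster of 151 members Sdc1 had 83.3 CPM in members and 55.4 CPM in the other barcodes, and Cd34 a ratio of 0.92 (0.82 to 1.03). The barcodes left out for inflamed genes had 613.0 CPM of Sdc1 and 58.1 CPM of Cd34, so members lay at ratios of 0.35 and 2.64 over them. The direction of both genes thus turned with the barcodes compared. Against all other kept barcodes, of the 5 sort markers, Sdc1 was at least 2-fold higher and Cd34 and Cd81 at least 2-fold lower. Pdpn (gp38) and Thy1 (CD90), on which the library was sorted, had 235.3 and 114.0 CPM in members, against 288.8 and 151.9 CPM in the others. Both Cd34 and Cd81 were detected in 7.54% of members and 23.5% of the others, and neither in 43.0% of members and 20.6% of the others. After thinning, Cd34 was seen in 29.3% of members and 62.4% of the others.

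Niche signals outside the rule differed by family, and no list of them is larger than 5 tested genes. Over all 6223 tested genes, to be set beside these lists and those below, 1.75% were at least 2-fold higher and 1.48% at least 2-fold lower. Of the 2 R-spondins with at least 20 CPM, Rspo1 was higher, while Rspo3 had 16.3 CPM in members and 23.1 CPM in the others. Of the 3 EGF family ligands, Nrg1 and Ereg were at least 2-fold higher, and Areg, amphiregulin, had 50.3 and 36.0 CPM. Of the 5 Wnt antagonists, Frzb was higher at 84.3 against 36.8 CPM, Sfrp2 lower at 73.6 against 169.9 CPM and Sfrp4 lower at 6.23 against 41.7 CPM. None of the 3 noncanonical Wnt ligands, 5 BMP ligands and 3 BMP antagonists passed 2-fold. Wnt4 had 286.4 CPM in members and 190.6 CPM in the others, Wnt5a 44.2 and 30.8 CPM, Bmp5 154.8 and 96.0 CPM, and Grem1, a BMP antagonist, 166.9 and 186.2 CPM.

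In 3 lists of lipid signalling genes, 1 or 2 genes of each were at least 2-fold higher, against 1.75% of all 6223 tested genes. Counts this small describe single genes and not the lists. Of 7 sphingosine-1-phosphate genes, Sphk1, the kinase that makes this lipid, was higher, with 140.6 CPM in members and 63.1 CPM in the others (ratio 2.23). Plpp3, which removes phosphate from lipids, had 1674 and 1075 CPM, and the receptor S1pr2 38.6 and 40.1 CPM. Of 12 oxysterol and cholesterol genes, Cyp7b1, a hydroxylase that acts on 25-hydroxycholesterol, was higher at 45.2 against 19.6 CPM (ratio 2.31), as was Apoe, while Lpl, lipoprotein lipase, had 1151 and 602.0 CPM. The other 9 had ratios of 0.69 to 1.25, so the list's median log2 ratio was 0.00. Of 8 retinoid genes, Aldh1a3 was higher at 193.4 against 88.8 CPM and Aldh1a2 lower at 9.45 against 27.5 CPM; both encode enzymes that make retinoic acid.

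Matrix genes differed by member of the family, where 1.75% of all tested genes were at least 2-fold higher and 1.48% lower. Of 17 collagens, Col18a1 was higher, with 755.1 CPM in members and 313.7 CPM in the others, and Col14a1 (62.3 against 233.7 CPM) and Col8a1 (16.3 against 57.7 CPM) were lower. Of 16 basement membrane and elastic fibre genes, Nid2, a basement membrane linker, was higher at 70.8 against 28.2 CPM, and Mfap5, Emilin2 and elastin (Eln) were lower, elastin at 402.8 against 848.0 CPM. The median log2 ratio was -0.11 for collagens and -0.25 for the basement membrane and elastic fibre genes.

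Cytokine genes were mixed, where 1.75% of all tested genes were at least 2-fold higher and 1.48% lower. Of 18 inflammatory fibroblast genes, none was at least 2-fold higher and 4 were lower: Ptx3, Il33, Il6 (16.1 against 39.6 CPM) and Ccl7 (86.3 against 188.2 CPM). The rule also keeps barcodes with at least 2 inflamed genes out of the members and leaves them, like those with Ebf1, among the others. Against barcodes that met the same other conditions with no rule marker, the ratio was 0.51 for Ptx3, 0.36 for Il33 (0.23 to 0.52), 0.88 for Ccl7 and 1.24 for Il6 (0.97 to 1.57). Against those with exactly 1 rule marker it was 0.84, 0.55, 0.85 and 1.03 in the same order. Il33 was thus lower in members against both, and Il6 against neither. Cxcl5 had 200.9 CPM in members and 102.2 CPM in the others, and Ptgs2, cyclooxygenase-2, 222.0 and 113.6 CPM, both just under 2-fold. Of 7 stromal chemokines, 3 were higher: Cxcl14, Cxcl10 (398.6 against 188.6 CPM) and Cxcl9 (179.4 against 88.8 CPM); Cxcl9 and Cxcl10 are interferon-induced. Of 9 complement genes, C3 (379.9 against 888.7 CPM) and Cd55 (158.9 against 380.7 CPM) were lower. None of 17 immediate early genes, which respond to tissue handling, passed 2-fold, and Fos had 2590 CPM in members and 2824 CPM in the others.

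Of 15 mesenchyme transcription factors and hedgehog genes, Runx1 was higher at 60.9 against 24.3 CPM and Hhip, a hedgehog antagonist, lower at 38.6 against 107.8 CPM. Of 15 PDGF, FGF, IGF and HGF genes, Igfbp6 and Pdgfa were lower, while Fgfr2 had 139.0 and 74.1 CPM. The kinase gene Map3k2, deleted in other mice of the study, had 40.6 CPM in members and 36.3 CPM in the others, and none of 7 genes of the route by which MAP3K2 reaches KLF2 passed 2-fold: Klf2 had 563.9 and 918.7 CPM and Klf4 266.6 and 474.0 CPM. Of 7 smooth muscle and myofibroblast markers, Myh11, Actg2 and Hhip were at least 2-fold lower, and Acta2 had 746.1 CPM in members and 1332 CPM in the others. The members' levels include the 28 members of the cluster led by Myh11, Actg2 and Cnn1.

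**Figure D5:**
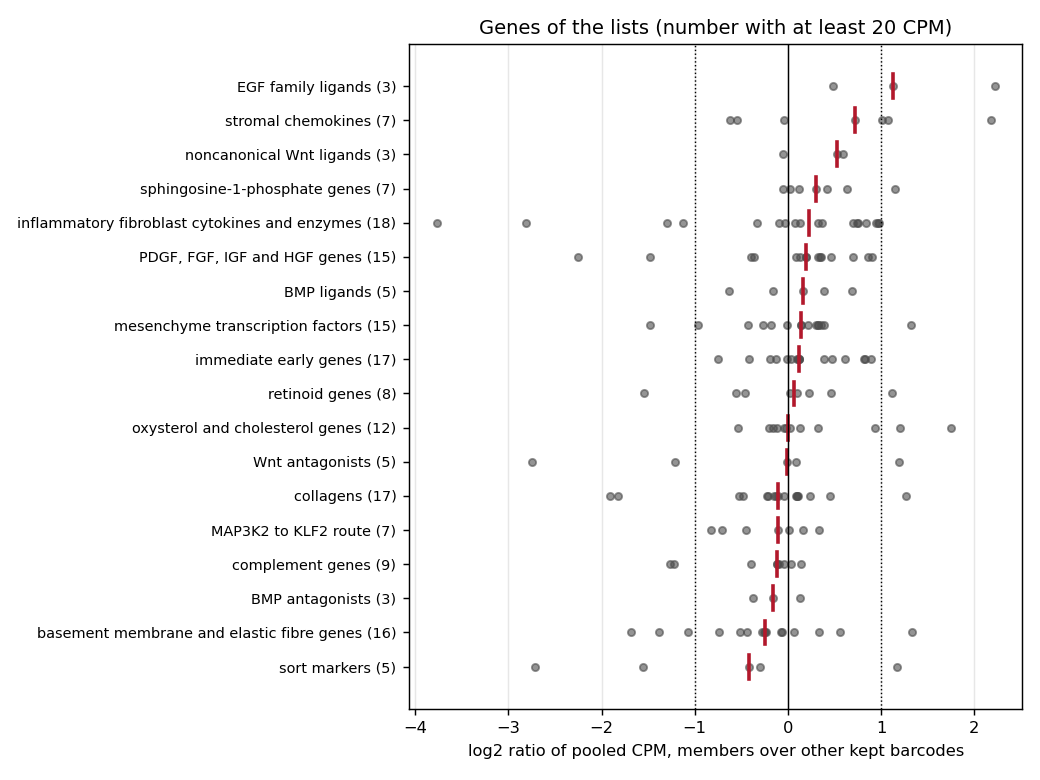
Log2 ratio of pooled CPM, members over other kept barcodes, for each gene with at least 20 CPM in either group (grey points) in 18 gene lists, with the median of each list in red and 2-fold as dotted lines. Among these 18 lists, those with at least 3 such genes, EGF family ligands have the highest median, 1.13, and sort markers the lowest, -0.41. The EGF family list has 3 such genes, of which Nrg1 and Ereg were named for comparison beforehand, and its median is the value of Ereg. The other 3 lists have 1 or 2 such genes and are not drawn.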

How the data were processed

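The single-cell values are whole UMI counts, deposited by the authors as a filtered and a raw matrix of genes by barcodes. bcl2fastq, Cell Ranger and Seurat with build mm10 are named per the submitters' processing notes, and software version 3.0.0 per the file headers. The ATAC-seq peak lists give 1 score per peak, deposited by the authors; which caller made them, what the score means and whether libraries were pooled before calling is not given in the sources, and the score was used to rank peaks within a list.

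The filtered matrix held 11484 barcodes and 31053 genes; 108 barcodes were left out by the filters, and 72920197 UMIs remained, with a median of 6052 per barcode (5th to 95th percentile 2704 to 11585.75). No doublet caller was run. UMIs were pooled per group and scaled to CPM, with exact Poisson intervals for levels, exact binomial intervals for ratios and Clopper-Pearson intervals for shares, all at 95% (numpy 2.4.6, scipy 1.17.1, pandas 2.3.3). Since PCR copies are joined by UMI, intervals count transcripts, and they cover counting error only. Immune barcodes had at least 3 of 6 immune genes, and epithelial barcodes at least 3 of 6 epithelial genes. Empty droplets were 546978 raw barcodes with 1 to 100 UMIs. Clusters came from 2000 variable genes, 30 components, 15 neighbours and Leiden at resolution 0.5 (scanpy 1.11.5, leidenalg 0.10.2), without the 9 genes of the rule; they were given no cell type names.

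Named genes were the 25 with the highest lower bound and the 15 with the lowest upper bound of the ratio, among genes with at least 20 CPM in the higher group, leaving out mitochondrial, ribosomal, Gm and Rik names, and from each list the members furthest from 1; 1 of these genes is not reported here. The members and the 21 lists were chosen with earlier results of these data known. Alternatives varied the rule, filters, depth, comparison group, free RNA and minimum level. Of the marker lists, the summed levels in members and others were 132.9 and 173.6 CPM for immune, 20.5 and 37.1 for blood endothelium, 1.81 and 0.69 for lymphatic endothelium, 2.41 and 5.25 for glia, and 52.3 and 90.5 for mesothelium.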

Additional observations from a re-analysis of the deposited data

How the results depend on the processing

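The log2 ratios of members over other kept barcodes (1.43 for Rspo1, 2.22 for Nrg1 and 1.13 for Ereg) stayed above 0 under every alternative but 1. Within the cluster with most members, an alternative chosen after the data were seen, Ereg was at -0.072, Rspo1 at 0.68 and Nrg1 at 0.27, and 17 genes were 2-fold higher and 19 lower, from fewer barcodes. With at least 3 rule markers, Rspo1 was 1.67 and Nrg1 2.38, with 212 genes higher and 186 lower and a member share of 1.00%. Thinned to 3000 UMIs, Rspo1 was 1.92, Nrg1 2.69 and Ereg 1.36, with 216 genes higher, 162 lower and a share of 2.58%. In barcodes of 4000 to 8000 UMIs the values were 2.29, 2.57 and 1.19 in the same order, and as means over barcodes 1.77, 2.36 and 1.20. Against Pdgfra barcodes Nrg1 was 1.93 and Ereg 1.01, and with no condition on inflamed genes they were 2.55 and 1.30. With free RNA subtracted Nrg1 was 2.42 and Ereg 1.24, and Rspo1 had 74.2 CPM in members and 25.2 CPM in the others. With Ces1f and Ces1g as 1 marker the share was 4.95%. A minimum of 50 CPM left 70 genes higher and 50 lower, against 109 and 92 at 20 CPM, and a minimum of 1 UMI gave 1477 and 744. The cause of each shift was not tested.

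Named genes changed sign 21 times. Car1 was at -2.68 with Ces1f and Ces1g as 1 marker, -2.39 with 3 markers, -1.68 without epithelial barcodes (also chosen after the data were seen) and -0.46 within the cluster. Reg3g was at -3.60, -3.18, -3.11 and -0.17 in the same order, -2.98 thinned and -0.66 between 4000 and 8000 UMIs. Reg3b was at -3.07 with 1 joint marker, -3.07 with 3 markers, -2.54 without epithelial barcodes and -1.70 thinned. Against Pdgfra barcodes, which exclude other cell types by their genes, Spink4 was at 0.33, Slpi at 0.66 and Jchain at 0.30. Spink4 was also at 0.056 between 4000 and 8000 UMIs and 0.24 within the cluster, where Tmem178 was at -0.15 and Ptn at 0.90. Subtracting free RNA, estimated at 12.7% of UMIs from 11 genes, left 9 named genes with no ratio.

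No paired analysis was possible because the comparison lies within 1 library. The depth limits the scarce genes: Rasd1, at 20.1 CPM in members, rests on 100 UMIs over 610 barcodes.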

Other observations

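Kcnj8, a potassium channel gene of pericytes, had 45.9 CPM in members and 18.9 CPM in the other kept barcodes, a ratio of 2.42 (2.09 to 2.79), while Rgs5, another pericyte gene, had 18.7 and 24.4 CPM. The pericyte list summed to 83.1 CPM in members and 60.8 CPM in the others, with 1 of its 2 tested genes at least 2-fold higher. Des, the intermediate filament gene desmin of muscle, had 179.4 and 101.8 CPM, although Myh11 and Actg2 were lower. Cdk1, a kinase of mitosis, had 14.7 CPM in members and 5.24 CPM in the others and was seen in 63 members, but Mki67 and Top2a had 0.60 and 2.41 CPM in members, against 2.24 and 4.52 CPM in the others.

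Tnfsf11, the cytokine RANKL, had 20 UMIs in 16 members and 65 UMIs in the others, a ratio of 4.20 (2.41 to 7.03). All 16 Madcam1 UMIs of the members lay in 1 barcode.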
